A study of Mus musculus with 8 samples.

Results

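The genes of the CH25H-CYP7B1-RORA oxysterol axis were followed in murine articular chondrocytes exposed to IL-1β. The set held 8 genes, chosen by symbol from the 54658 symbols of the count table: the oxysterol-producing and oxysterol-converting enzymes Ch25h and Cyp7b1, the nuclear receptors Rora, Nr1h3 (LXRα) and Nr1h2 (LXRβ), and the cholesterol efflux genes Abca1, Abcg1 and Apoe. All 8 were among the 14404 genes tested, which had a CPM (counts scaled to a common library total) above 1 in at least 4 samples. RNA-Seq compared 4 IL-1β samples with 4 vehicle samples. Both groups were primary articular chondrocytes, freed with collagenase from femoral head cartilage of wild-type mice aged 3 weeks. The dose of IL-1β was 1 ng/mL over 24 h, and the vehicle is not further described. Neither the labels nor the methods say whether the samples were separate animals or separate wells, so the p-values measure the spread between these samples, which may be technical. Totals per sample ran from 10992355 to 17456063 counts, at which 3 counts amount to 0.173 to 0.27 CPM.

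Oxysterols are oxidized forms of cholesterol that act as signals. CH25H adds a hydroxyl group to cholesterol to make 25-hydroxycholesterol, and CYP7B1 adds a further hydroxyl group to this product. RORα is a nuclear receptor with a pocket that can hold cholesterol derivatives, while the liver X receptors LXRα and LXRβ are switched on by oxysterols and drive the export of cholesterol through ABCA1 and ABCG1 to apolipoproteins such as APOE. In cartilage, earlier work described CH25H, CYP7B1 and RORα as a chain that leads from cholesterol metabolism to the matrix-degrading enzymes of osteoarthritis. IL-1β is a proinflammatory cytokine that activates NF-κB.

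Promoter sequences from RefSeq (build GRCm38.p6, 250 bases before to 50 after each annotated start) were found for 6 of the 8 genes, and not for Cyp7b1 and Abcg1. The 250 bases upstream of Ch25h and of Abca1 are shown, because Ch25h had the largest fold change of the 8 genes and Abca1 the smallest adjusted p. They are written 5′ to 3′ on the minus strand, on which both genes lie. Capitals in Ch25h (chr19:34475149-34475398) mark the cAMP response element TGACGTCA, which reads the same on both strands. Capitals in Abca1 (chr4:53159896-53160145) mark a match, on the strand opposite to the gene, to the direct repeat of AGGTCA with 4 bases between the copies (DR4) that LXR binds.
Ch25h: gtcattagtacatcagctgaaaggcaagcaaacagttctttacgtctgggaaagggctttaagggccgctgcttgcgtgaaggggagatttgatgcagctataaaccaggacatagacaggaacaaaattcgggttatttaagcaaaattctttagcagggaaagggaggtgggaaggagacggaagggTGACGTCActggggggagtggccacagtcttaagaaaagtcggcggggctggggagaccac
Abca1: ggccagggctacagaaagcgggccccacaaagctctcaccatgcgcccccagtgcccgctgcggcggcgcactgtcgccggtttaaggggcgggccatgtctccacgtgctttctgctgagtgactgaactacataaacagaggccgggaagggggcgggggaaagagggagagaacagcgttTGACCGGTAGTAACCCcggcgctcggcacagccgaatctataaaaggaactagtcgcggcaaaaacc

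The element in Ch25h lay at positions -61 to -54 from the start (chr19:34475202-34475209), and 1.79% of 32851 mouse promoters of the same length held these letters. The match in Abca1 lay at positions -67 to -52 (chr4:53159947-53159962) and needed 3 mismatches in all, a tolerance at which 21.9% of promoters had a match. Both searches were added after the data had been seen. With at most 1 mismatch in each copy, DR4 matched 1.75% of promoters and none of the 6 genes. The ROR response element (0.384% of promoters), the NF-κB consensus (4.51%) and the sterol regulatory element TCACNCCAC (1.24%), each searched on both strands, also had no match in the windows of the 6 genes. A match is a run of letters and not a measured binding site.

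Among the 8 genes, 7 had an adjusted p under 0.05, with 6 higher and 1 lower with IL-1β, where 40.2% of all genes tested passed (20.4% higher and 19.8% lower). Differentially expressed genes (DEGs), which passed with an absolute log2 fold change above 1, numbered 3 of the 8, all higher, against 5.21% of all genes in either direction and 2.86% in the higher direction. Ch25h passed the filter on low values only through its IL-1β samples. With more than 1 CPM required in all 8 samples, Cyp7b1 and Abcg1 were the 2 DEGs, where 3.94% of 12964 genes were DEGs. The samples of the groups did not overlap for 6 of the 8, compared with 36.8% of all genes tested. The median log2 fold change of the 8 genes was 0.54, beside -0.0012 for all genes tested. The 8 genes were chosen with earlier results of these data known. These shares and the median therefore describe the set and do not test whether it changed more than other genes. Adjusted p-values are from edgeR's quasi-likelihood test with Benjamini-Hochberg adjustment over all 14404 genes, and abundances are TMM-scaled CPM, given as mean ± SD.

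**Figure D1:**
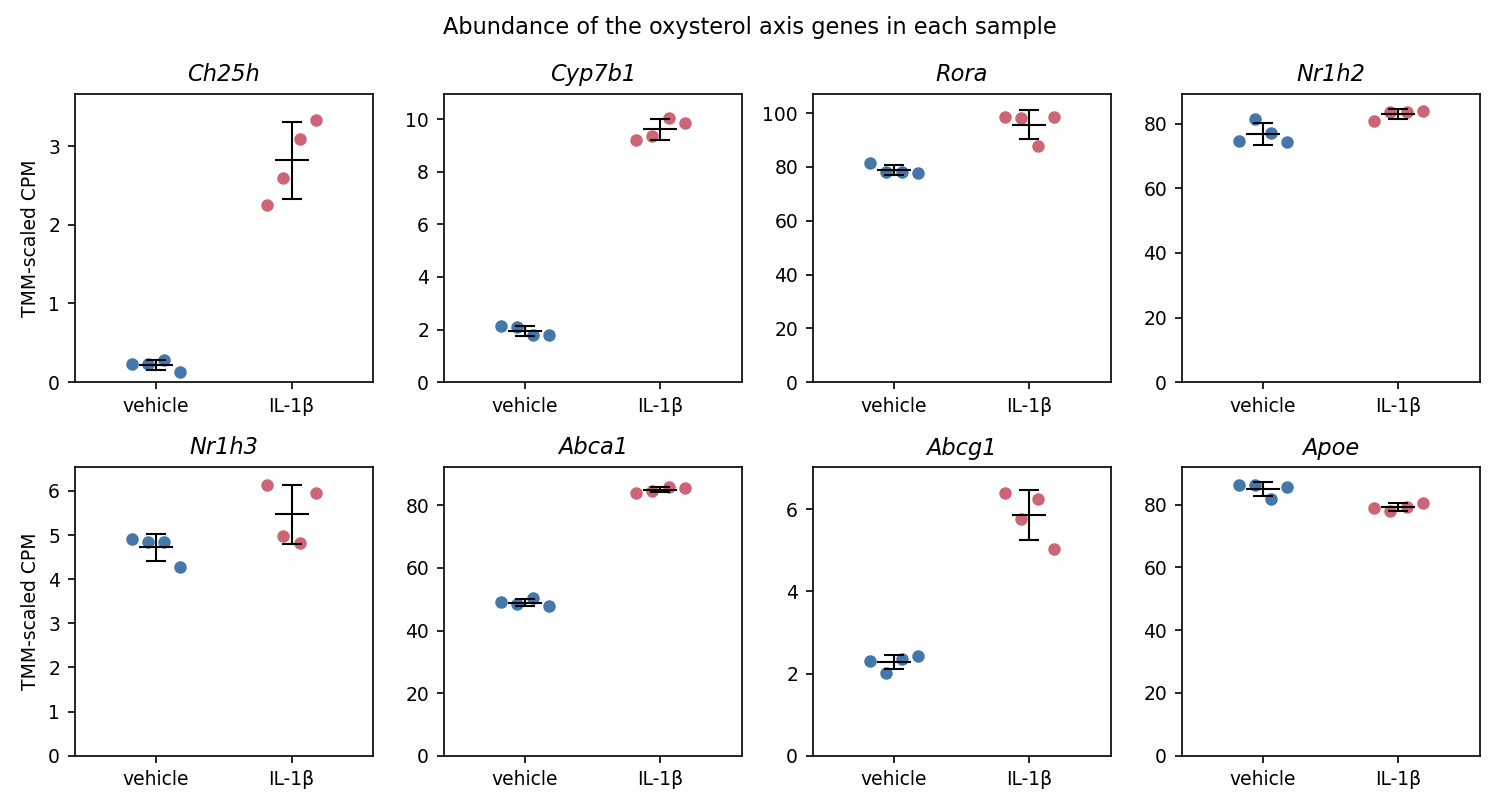
TMM-scaled CPM of each of the 8 genes (y axis, from 0, separate scale for each gene) in the 4 vehicle and 4 IL-1β samples (points), with the mean (line) and SD (bars). The IL-1β samples lie above all vehicle samples for Ch25h, Cyp7b1, Rora, Abca1 and Abcg1 and below them for Apoe, while the groups overlap for Nr1h2 and Nr1h3.

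The largest differences were in the enzymes. Ch25h lies on chr19:34473778-34475164 (minus strand, GRCm38) and consists of a single exon. It was at 2.25, 2.60, 3.09 and 3.33 CPM in IL-1β samples 1 to 4 and at 0.231, 0.231, 0.285 and 0.131 CPM in vehicle samples 1 to 4. Every IL-1β sample was above every vehicle sample. The means were 2.82 ± 0.486 CPM and 0.220 ± 0.0641 CPM (SD, n = 4), a log2 fold change of 3.65 (SE 0.297, adjusted p = 2.92e-11, edgeR), or 12.6-fold. These values rested on few reads, with 160 counts in all with IL-1β and 14 with vehicle. The ratio of these sums, relative to depth, was 13.06, with a 95% exact interval of 7.56 to 24.43 that covers counting error only. Since vehicle samples held 2 to 4 counts each, Ch25h left the test when more than 1 CPM was required in all 8 samples.

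Of the exon bases of Ch25h, 11.5% overlap the locus Gm26902 on the opposite strand. Gm26902 had 7, 8, 10 and 12 counts in the IL-1β samples and 3, 1, 2 and 1 in the vehicle samples. It was higher with IL-1β as well, and because the strand setting of the counting is not stated, reads in the shared stretch cannot be told apart.

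Cyp7b1 (chr3:18071950-18243338, minus strand, 6 exons) encodes the hydroxylase that acts on 25-hydroxycholesterol and 27-hydroxycholesterol. It was at 9.19, 9.38, 10.0 and 9.86 CPM in the IL-1β samples and at 2.13, 2.08, 1.78 and 1.77 CPM in the vehicle samples. The IL-1β samples lay close together and far above the vehicle samples. Cyp7b1 rose from 1.94 ± 0.191 to 9.62 ± 0.398 CPM (SD, n = 4), a log2 fold change of 2.30 (SE 0.129, adjusted p = 7.73e-15, edgeR), or 4.92-fold.

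The receptors moved far less. Rora (chr9:68653786-69388246, plus strand) encodes RORα. It was at 98.5, 98.0, 87.7 and 98.5 CPM with IL-1β and at 81.4, 78.1, 78.0 and 77.8 CPM with vehicle. The groups were separate, although IL-1β sample 3 stood below the other IL-1β samples and vehicle sample 1 above the other vehicle samples. Rora rose by 0.28 on the log2 scale (SE 0.0401, adjusted p = 1.81e-06, edgeR), which is 1.21-fold. The antisense locus Gm15511, which overlaps 0.627% of the exon bases of Rora, had 69 counts over the IL-1β samples and 54 over the vehicle samples.

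Nr1h2 (chr7:44549616-44553951, minus strand) encodes LXRβ, the form found in most tissues. It was at 80.7, 83.5, 83.7 and 84.0 CPM with IL-1β and at 74.7, 81.6, 77.0 and 74.3 CPM with vehicle. Vehicle sample 2 was above IL-1β sample 1, so the groups overlapped. The log2 fold change was 0.11 (SE 0.0387, adjusted p = 0.0225, edgeR), while an exact two-sided permutation test of the CPM gave p = 0.0571. The call was lost with DESeq2 (adjusted p = 0.0518), with no filter on low counts (adjusted p = 0.0613, edgeR), and when vehicle sample 1 (adjusted p = 0.0777) or vehicle sample 4 (adjusted p = 0.0681) was left out.

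Nr1h3 (chr2:91184061-91202834, minus strand) encodes LXRα, the form of liver, fat and macrophages. It was at 6.13, 4.98, 4.81 and 5.96 CPM with IL-1β and at 4.90, 4.85, 4.85 and 4.27 CPM with vehicle. IL-1β sample 3 lay among the vehicle samples. The difference of 0.20 on the log2 scale (SE 0.127, 95% interval -0.063 to 0.459) did not pass the test (adjusted p = 0.234, edgeR). The interval includes 0 and also the difference measured for Rora. Of the exon bases of Nr1h3, 1.35% overlap the locus Gm13783 on the same strand. Gm13783 had 20 counts over the IL-1β samples and 28 over the vehicle samples.

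The transporters rose. Abca1 (chr4:53030787-53159895, minus strand) encodes the pump that loads cholesterol onto lipid-poor apolipoproteins. It was at 84.0, 84.7, 85.9 and 85.7 CPM with IL-1β and at 49.2, 48.6, 50.3 and 47.7 CPM with vehicle. The spread within a group was 1.07% of the mean with IL-1β and 2.26% with vehicle. Abca1 went from 49.0 ± 1.10 to 85.1 ± 0.908 CPM (SD, n = 4), a log2 fold change of 0.80 (SE 0.0383, adjusted p = 1.90e-16, edgeR), which is 1.74-fold and below the threshold for a DEG.

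Abcg1 (chr17:31057675-31117988, plus strand) encodes the transporter that moves cholesterol to high-density lipoprotein. It was at 6.40, 5.77, 6.24 and 5.04 CPM with IL-1β and at 2.31, 2.02, 2.35 and 2.43 CPM with vehicle. Every IL-1β sample was above every vehicle sample. The log2 fold change was 1.36 (SE 0.145, adjusted p = 7.40e-09, edgeR), or 2.57-fold. Tested against a log2 fold change of 1 in place of 0 (glmTreat), Abcg1 was no longer a DEG (adjusted p = 0.0744), which left 2 of the 8 genes. Of all 14404 genes, 437 were DEGs under that test.

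Apoe (chr7:19696109-19699188, minus strand), the apolipoprotein that accepts exported cholesterol, went the other way. It was at 79.0, 77.8, 79.3 and 80.6 CPM with IL-1β and at 86.2, 86.3, 81.7 and 85.4 CPM with vehicle. All IL-1β samples were below all vehicle samples, by a small margin. The log2 fold change was -0.10 (SE 0.0363, adjusted p = 0.0263, edgeR). The call was lost with DESeq2 (adjusted p = 0.0658), with no filter on low counts (adjusted p = 0.0541, edgeR), and without IL-1β sample 2 (adjusted p = 0.0715), vehicle sample 1 (0.0591) or vehicle sample 2 (0.0705).

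**Figure D2:**
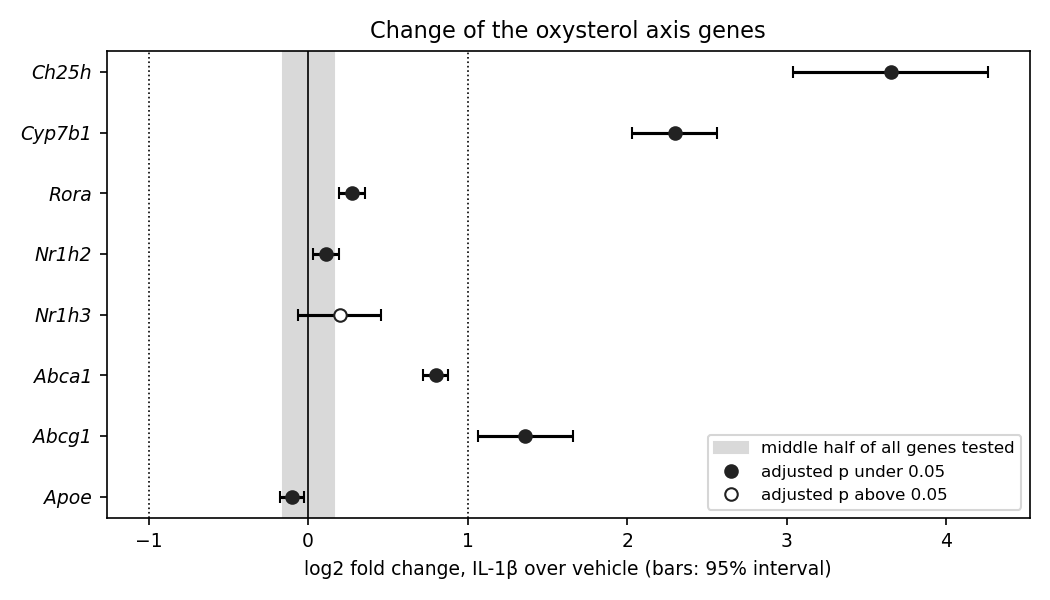
log2 fold change of IL-1β over vehicle (x axis) for the 8 genes, with bars for the 95% interval, filled points for an adjusted p under 0.05 and a grey band for the span between the quartiles of all genes tested (-0.155 to 0.160). Ch25h (3.65), Cyp7b1 (2.30) and Abcg1 (1.36) lie beyond the dotted line at 1, and Nr1h2 (0.11) and Apoe (-0.10) lie within the band.

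The cells expressed markers of chondrocytes, and these fell with IL-1β. All 10 chondrocyte markers, among them Col2a1, Acan and Sox9, were DEGs with lower abundance, and their summed abundance was 15000 to 15500 CPM in vehicle samples and 3790 to 4160 CPM in IL-1β samples. In bulk RNA, fewer cells of a type and less RNA per cell cannot be told apart. The 12 macrophage and leukocyte markers summed to 3.15 to 3.82 CPM with IL-1β and 3.40 to 5.21 CPM with vehicle. Adgre1, Itgam, Cd163, Tyrobp and C1qa had at most 3 counts in any sample, and the only macrophage marker tested, Lyz2, was lower with IL-1β (log2 fold change -0.60, adjusted p = 0.0364, edgeR). Of 6 fibroblast markers 3 were tested, with 1 higher (Pdgfra), 1 lower (Col3a1) and 1 not passing (Col1a1), and their sum was 158 to 174 CPM with IL-1β and 164 to 172 CPM with vehicle. The 3 osteoblast markers tested, Bglap, Ibsp and Sp7, were DEGs with lower abundance, and the sum over this list fell from 84.0 to 94.9 CPM with vehicle to 25.9 to 31.4 CPM with IL-1β. The 4 red blood cell markers summed to at most 1.80 CPM in any sample, the 5 endothelial markers to at most 1.25 CPM and the 4 adipocyte markers to at most 1.51 CPM. The part of the marker changes in the oxysterol genes was not tested.

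Divided by the gene length listed beside the counts, the 8 genes spanned a wide range of levels. In vehicle samples Apoe was highest at 39.7 ± 1.03 CPM per kb, followed by Nr1h2 at 22.9 ± 0.997, Rora at 6.03 ± 0.131 and Abca1 at 4.72 ± 0.107 CPM per kb (SD, n = 4). Below these came Nr1h3 at 1.88 ± 0.119, Cyp7b1 at 0.897 ± 0.0882, Abcg1 at 0.560 ± 0.0439 and Ch25h at 0.163 ± 0.0475 CPM per kb. No neighbours in this order overlapped between samples. With IL-1β, Abca1 (8.21 ± 0.0876 CPM per kb) was above Rora (7.32 ± 0.406), Cyp7b1 (4.44 ± 0.184) was above Nr1h3 (2.17 ± 0.267), and Ch25h (2.09 ± 0.360) was above Abcg1 (1.44 ± 0.150), each without overlap. Nr1h3 and Ch25h were neighbours in that order and overlapped. The vehicle order was the same with the longest coding transcript in place of the listed length. With IL-1β that length put Rora (8.80 ± 0.488 CPM per kb) before Abca1 (8.29 ± 0.0885), with overlapping samples, and set Nr1h3 apart from Ch25h, so these neighbours depend on the length used. The largest gap between the lengths was for Abcg1, whose listed length of 4066 bases compares with 7298 exon bases in the annotation used here.

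**Figure D3:**
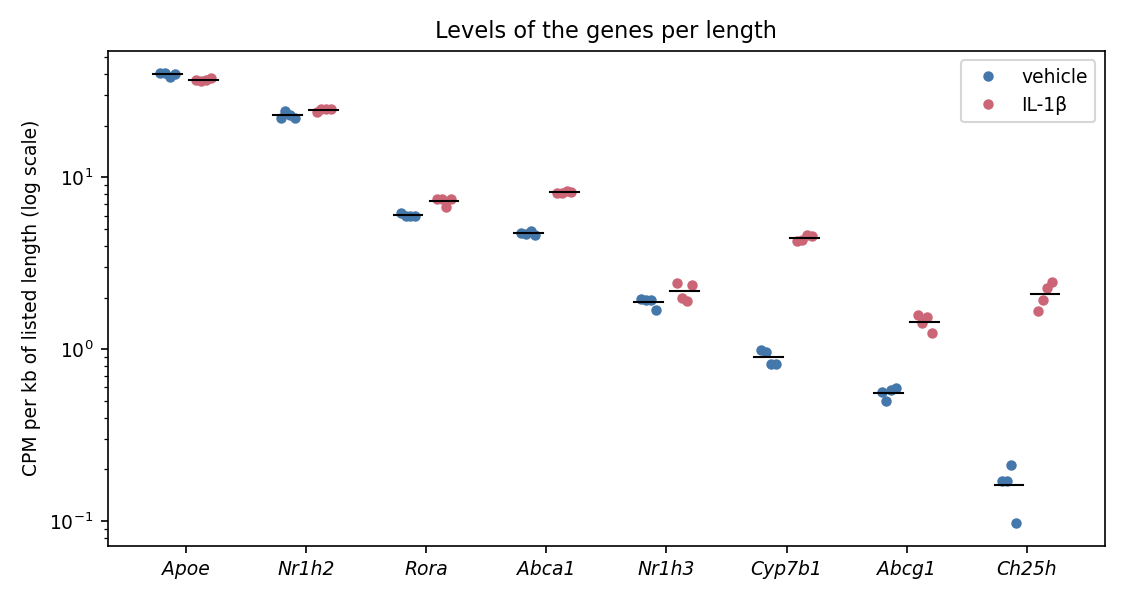
TMM-scaled CPM per kb of listed gene length (y axis, log scale) of the 8 genes, in order of their vehicle mean, for each vehicle and IL-1β sample (points) with group means (lines). Ch25h goes from 0.163 to 2.09 CPM per kb and Cyp7b1 from 0.897 to 4.44, while Apoe stays highest at 39.7 and 37.0.

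Ratios between genes of like function were formed within each sample, so that the scaling between samples drops out. The size of each ratio depends on the gene lengths used, while its log2 difference between the groups does not. The transcripts of Cyp7b1 exceeded those of Ch25h per length by 5.71-fold with vehicle and by 2.15-fold with IL-1β. The log2 ratio was 1.35, 1.17, 1.02 and 0.88 in the IL-1β samples and 2.53, 2.49, 1.96 and 3.07 in the vehicle samples. It was lower in all IL-1β samples, by a mean difference of -1.41 (SE 0.248, exact two-sided permutation p = 0.0286, adjusted p = 0.0429 over 3 ratios), and its vehicle values rest on the 2 to 4 counts of Ch25h in each sample. The ratio of Abca1 to Abcg1 per length went from 8.45 to 5.72. Its log2 value was 2.37, 2.53, 2.44 and 2.74 with IL-1β and 3.06, 3.24, 3.07 and 2.95 with vehicle, again lower in all IL-1β samples, by a mean difference of -0.56 (SE 0.101, exact two-sided permutation p = 0.0286, adjusted p = 0.0429). The ratio of Nr1h3 to Nr1h2 was 0.0818 with vehicle and 0.0874 with IL-1β, and its log2 difference of 0.095 (SE 0.106) was within the spread between samples (exact two-sided permutation p = 0.4). With 4 samples against 4, the smallest p this test can give is 0.0286.

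**Figure D4:**
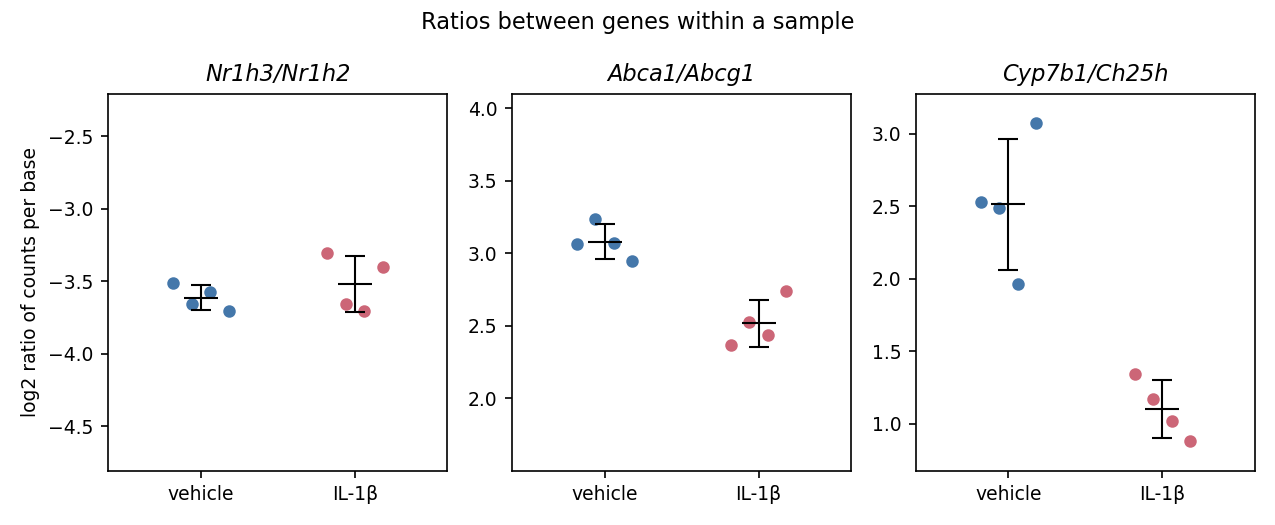
log2 ratio of counts per base between 3 pairs of genes (y axis, equal span in each panel) in the vehicle and IL-1β samples (points), with mean (line) and SD (bars). The ratios Abca1/Abcg1 and Cyp7b1/Ch25h are lower in every IL-1β sample than in any vehicle sample, and the ratio Nr1h3/Nr1h2 overlaps.

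The profiles most like those of the axis genes were found by the Euclidean distance between centred log2(CPM + 1) values over the 8 samples, among the 10580 genes tested with a mean of at least 5 CPM in either group. The profiles include the difference between the treatments, so this measure mostly reflects its size on the log2(CPM + 1) scale. The nearest genes to Ch25h were Gch1 (distance 0.286), Grb14 (0.324) and Plpp3 (0.34). Their log2 fold changes were 1.65, 1.72 and 1.54, below the 3.65 of Ch25h. Adding 1 to its low CPM shrinks the change of Ch25h on this scale. The nearest to Cyp7b1 were Tmem176b (0.149), Bcl3 (0.158), a relative of the IκB proteins, and Nfkbia (0.169), which encodes IκBα, an inhibitor of NF-κB. In that order, their log2 fold changes were 1.90, 1.93 and 1.89. These are below the 2.30 of Cyp7b1, whose change is also shrunk on this scale. The nearest to Rora were Trim56 (0.0495), Slc35f5 (0.0779) and Zfp292 (0.0804).

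Around the axis, 101 further genes in 8 lists were examined, of which 81 were tested. Among these, 53 passed (65.4%, beside 40.2% of all genes tested), with 30 higher and 23 lower, and 5 were DEGs (6.17%, beside 5.21%). Their median log2 fold change was 0.050. The lists were also chosen with earlier results of these data known, so these shares are a description only. Changes went both ways in most lists.

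Of 10 other enzymes that make, convert or conjugate oxysterols, 2 passed the filter on low counts and were tested. Cyp27a1, which makes 27-hydroxycholesterol in mitochondria, fell from 8.22 ± 1.02 to 5.17 ± 0.838 CPM (SD, n = 4; log2 fold change -0.65, adjusted p = 9.92e-05, edgeR). Cyp39a1, a hydroxylase of 24-hydroxycholesterol, averaged 1.11 CPM in vehicle samples and 1.14 CPM in IL-1β samples (log2 fold change 0.081, SE 0.262, adjusted p = 0.846, edgeR). The sulfotransferase gene Sult2b1 averaged 0.710 CPM in vehicle samples and 0.870 CPM in IL-1β samples, and was not tested. Hsd3b7, which acts after CYP7B1 and turns over the ligands of the receptor GPR183, had at most 1 count in any sample. Cyp7a1, the rate-limiting enzyme of the classic bile acid pathway in liver, had 0 counts in all samples.

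Of 12 further receptors, sensors and partners, 9 were tested, with 2 higher, 1 lower and 6 not passing (median log2 fold change 0.074). Rxra, the partner with which LXR binds DNA, fell by 0.16 on the log2 scale (adjusted p = 0.00121, edgeR). The corepressor gene Ncor1 differed by 0.073 on the log2 scale (adjusted p = 0.0577, edgeR), which passed under some of the alternatives. Gpr183, the receptor of migrating immune cells for oxysterols, had 2 to 12 counts per sample and was not tested.

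All 12 genes of the oxysterol-binding protein family were tested, with 4 higher, 4 lower and 4 not passing (median log2 fold change 0.067). Osbp, which exchanges sterol and lipid between membranes, fell by 0.13 on the log2 scale (adjusted p = 0.00810, edgeR) and Osbpl9 fell by 0.14 (adjusted p = 0.000532). Osbpl2 differed by 0.084 on the log2 scale (adjusted p = 0.0653, edgeR), which passed under some of the alternatives.

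Other genes described as LXR targets moved in both directions. Of 18 listed, 14 were tested, with 6 higher, 7 lower and 1 not passing. The median log2 fold change was -0.0070, and -0.16 with the stricter filter on low counts and -0.17 with none. Tgm2, which encodes a transglutaminase that crosslinks proteins, was a DEG and went from 16.3 ± 0.612 to 36.9 ± 2.56 CPM (SD, n = 4; log2 fold change 1.18, adjusted p = 1.06e-15, edgeR). Lpl, the lipase of triglyceride-rich lipoproteins, was a DEG in the other direction, from 23.8 ± 3.23 to 8.02 ± 1.18 CPM (log2 fold change -1.56, adjusted p = 2.65e-13, edgeR). Among the lipogenic genes, Srebf1, the sterol regulatory factor that LXR is known to drive, fell by 0.16 on the log2 scale (adjusted p = 0.000427, edgeR) and the fatty acid synthase gene Fasn fell by 0.20 (adjusted p = 8.31e-06), while the desaturase gene Scd2 rose by 0.24 (adjusted p = 5.02e-07).

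Of 16 further genes of cholesterol efflux, storage, trafficking and lipoprotein uptake, 14 were tested, with 9 higher, 3 lower and 2 not passing (median log2 fold change 0.30, beside -0.0012 for all genes tested). Lrp1, a large uptake receptor that also binds APOE, rose from 2059 ± 29.7 to 2512 ± 82.4 CPM (SD, n = 4; log2 fold change 0.29, adjusted p = 4.47e-10, edgeR). Soat1, which esterifies cholesterol for storage, rose by 0.41 on the log2 scale (adjusted p = 1.95e-12, edgeR), and Vldlr, a receptor for very-low-density lipoprotein, fell by 0.24 (adjusted p = 3.22e-07). Npc2 and Lipa, chosen after their values were seen, act in the lysosome, where Lipa frees cholesterol from its esters and Npc2 carries it out. Npc2 rose by 0.68 (adjusted p = 8.83e-17, edgeR) and Lipa by 0.66 (adjusted p = 2.15e-07).

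In cholesterol synthesis, 20 of 22 genes were tested, with 3 higher, 3 lower and 14 not passing (median log2 fold change -0.065). Srebf2, which encodes the master regulator of the pathway, rose by 0.18 on the log2 scale (adjusted p = 6.31e-05, edgeR). Hmgcs1, a synthase of the early pathway that was chosen after its values were seen, fell by 0.39 (adjusted p = 8.62e-07, edgeR). Sc5d, a late desaturase, rose by 0.14 (adjusted p = 0.0254, edgeR), a call that was lost with DESeq2 (adjusted p = 0.0770), with no filter on low counts (adjusted p = 0.0581), and without IL-1β sample 2 (0.0704) or 4 (0.0649) or vehicle sample 1 (0.121) or 3 (0.0645).

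The 7 clock genes whose promoters are shared by ROR and REV-ERB factors all passed, beside 40.2% of all genes tested. Of these 7, 3 were higher and 4 lower (median log2 fold change -0.20). Nr1d1, which encodes REV-ERBα and competes with RORα for the same elements, fell from 74.2 ± 1.25 to 45.4 ± 4.94 CPM (SD, n = 4; log2 fold change -0.70, adjusted p = 3.68e-12, edgeR). Nr1d2 fell by 0.23 (adjusted p = 0.000168, edgeR) and Clock by 0.20 (adjusted p = 5.61e-05). Nfil3, a repressor of clock outputs that was chosen after its values were seen, rose by 0.44 on the log2 scale (adjusted p = 9.16e-09, edgeR).

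Of the 4 matrix-degrading enzymes placed downstream of the axis in cartilage, 3 were tested and all 3 rose (median log2 fold change 2.71, or 1.80 over the list with no filter on low counts). Mmp3 went from 23.6 ± 1.47 to 1054 ± 69.0 CPM (SD, n = 4; log2 fold change 5.48, adjusted p = 1.12e-33, edgeR). Mmp13, the main collagenase of cartilage, went from 32.1 ± 2.10 to 211 ± 4.94 CPM (log2 fold change 2.71, adjusted p = 1.02e-28, edgeR). Adamts5, an aggrecan-cleaving enzyme, rose by 0.89 on the log2 scale (adjusted p = 6.74e-15, edgeR), and Adamts4 had 3 to 10 counts per sample and was not tested. No manipulation of Ch25h, Cyp7b1 or Rora is part of these samples, so these changes stand beside those of the axis without a test of a link between them.

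**Figure D5:**
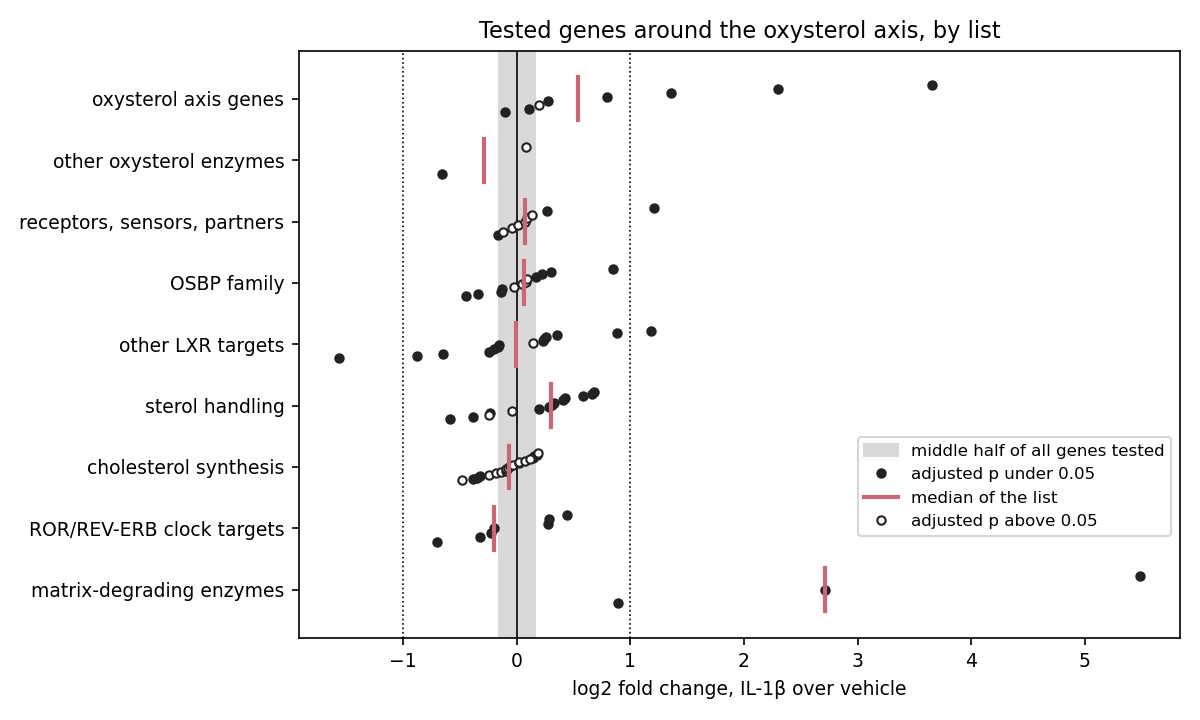
log2 fold change of IL-1β over vehicle (x axis) of the tested genes in the axis and in each of 8 lists around it (y axis), with filled points for an adjusted p under 0.05, red lines for list medians and a grey band between the quartiles of all genes tested. Medians lie between -0.29 (other oxysterol enzymes, 2 genes) and 0.54 except for the matrix-degrading enzymes (2.71, 3 genes), and other LXR targets spread from -1.56 to 1.18.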

How the data were processed

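After trimming by cutadapt, the authors aligned the reads with STAR to mm10 (GENCODE vM20) and assigned them to genes with featureCounts of the Subread package. The deposited values are unscaled whole-number counts for each gene symbol, beside the length of each gene in bases, which is in a unit of its own (other). Neither the strand setting of the counting, nor whether the RUVseq correction named in the methods was already applied to these counts, is given in the sources used here. How reads in exon bases shared between genes were assigned is not stated either, so the counts of such genes may be affected.

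All 8 count columns were used, grouped by the treatment in the labels. Counts were scaled by TMM (factors 0.984 to 1.01) and compared by the quasi-likelihood test of edgeR 4.0.16 (with limma 3.58.1 under R 4.3.3). The fit held a treatment term alone and took in 14404 genes, those above 1 CPM in no fewer than 4 samples. DEGs had an absolute log2 fold change above 1 and a Benjamini-Hochberg adjusted p under 0.05. The code was tested on simulated data. Ratios were compared by exact permutation over samples (Python 3.11.15, scipy 1.17.1). Positions are from GENCODE vM21 (GRCm38), in which 6 of the 8 genes had the listed length. Promoters are from RefSeq. Values of 3 counts or fewer (0.173 to 0.27 CPM) are close to the limit of detection. Intervals of log2 fold changes come from the fit across samples, and that of the ratio of summed counts covers counting error only.

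The 8 genes and all lists were chosen with earlier results of these data known. Within a list, DEGs were named, and of the rest the 3 with the highest mean CPM. Gpr183, Hsd3b7, Cyp7a1, Npc2, Lipa, Hmgcs1 and Nfil3 were named after their values were seen. Single values of some genes that this rule names are not reported here.

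The alternatives were DESeq2 1.42.0, scaling by its size factors or by library totals, a stricter low-count filter or no filter, a block for the replicate number, 1 factor by RUVs, glmTreat with a log2 fold change of 1 as the null, a DEG threshold of 2, and each sample left out in turn. A fit without Gm26917, which held 13.2% to 14.6% of the counts, was added after seeing the data. Within a group, samples differed by more than sampling noise, so none was counted as a library deposited again.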

Additional observations from a re-analysis of the deposited data

Results flagged for a closer look

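Within groups of 4 samples, 4 of 24 groups of values had 1 sample far from the others (a gap to its neighbour, relative to the range, above Dixon's 95% critical value), where chance gives about 1 in 20, or 1.2 groups. Rora was at 87.7 CPM in IL-1β sample 3, with the rest between 98.0 and 98.5 CPM, and at 81.4 CPM in vehicle sample 1, with the rest between 77.8 and 78.1 CPM. Left out in turn, no sample ended the call of Rora (log2 fold change 0.261 to 0.32). Nr1h2 was at 80.7 CPM in IL-1β sample 1, against 83.5 to 84.0 CPM in the others, and Nr1h3 at 4.27 CPM in vehicle sample 4, against 4.85 to 4.90 CPM.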

How the results depend on the processing

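The calls of Ch25h, Cyp7b1, Rora, Abca1 and Abcg1 held their direction and passed the test under each alternative that tests against no change and in which the gene was tested, and Nr1h3 passed under none of the alternatives. With DESeq2, Nr1h2 (log2 fold change 0.111, adjusted p = 0.0518) and Apoe (-0.101, adjusted p = 0.0658) no longer passed, and likewise with no filter on low counts (0.105, adjusted p = 0.0613, and -0.107, adjusted p = 0.0541, edgeR). The cause was not tested. Against a log2 fold change of 1 (glmTreat), Rora (0.276), Nr1h2 (0.111), Abca1 (0.798) and Apoe (-0.101) did not pass, by the construction of that test, and neither did Abcg1 (1.36, adjusted p = 0.0744), whose estimate lay beyond 1. Ch25h could not be tested with a filter of more than 1 CPM in all 8 samples. The median over the other oxysterol enzymes, -0.286 over 2 genes, was -0.653 with that filter, 0.216 with no filter and -0.174 and -0.386 without IL-1β sample 1 or 3. Among all genes, 751 DEGs became 1206 with no filter, 437 with glmTreat and 183 beyond a log2 fold change of 2.

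Left out in turn, single samples gave 0.0942 to 0.142 for Nr1h2 (adjusted p = 0.00641 to 0.0777) and -0.119 to -0.0912 for Apoe (adjusted p = 0.0179 to 0.0715). The log2 ratios gave -0.637 to -0.51 for Abca1/Abcg1 and -1.59 to -1.22 for Cyp7b1/Ch25h, where 3 against 4 samples cannot pass (adjusted exact p = 0.0857). Cyp39a1, which passed no test, turned to -0.0613 and -0.0181 without IL-1β sample 2 or 3 and ranged up to 0.242.

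Same-numbered samples did not deviate together (correlations -0.0699 to 0.0416), so the numbers were not taken as pairs. With the replicate number as a block, 7 of the 8 genes passed and 3 were DEGs. Of all 14404 genes, 5643 passed in that fit and 751 were DEGs. The paired log2 ratios of -0.562 for Abca1/Abcg1 and -1.41 for Cyp7b1/Ch25h then had an adjusted exact p of 0.188, since 4 pairs allow no p below 0.125. Depth limits Ch25h, at 2 to 4 counts per vehicle sample.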
